A study of Mus musculus with 12 samples.

Results

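The 42 genes described here encode the machinery that folds proteins in the endoplasmic reticulum (ER) and removes those that fail to fold: 9 HSP70 and HSP90 chaperones and their partners, 4 J-domain co-chaperones, 3 genes of the lectin chaperone cycle, 9 disulfide isomerases and oxidases, 3 prolyl isomerases, 4 stress-sensor genes and 10 genes of ER-associated degradation. They were chosen by name with earlier results of these data known, so how many were called describes the list and is no independent test. All 42 were found among the 32542 gene symbols of the deposited table. RNA was sequenced from 3T3 cells, a mouse fibroblast line, in 4 groups of 3 libraries. The Untreated group received no extracellular vesicles (EVs, membrane-bound particles that cells release). The other groups were exposed for 24 h to EVs shed by MDA-MB-468 (an established line of human breast cancer cells): from control donor cells (shCon), from donor cells with the surface protein CRIPTO knocked down (shCr) or from donor cells overexpressing CRIPTO (CrOE). The EV dose, the medium given to Untreated cells and whether each donor line was 1 clone are not given in the sources used here. Nor do the labels say that the 3 libraries of a group came from separate cultures, so p-values measure the spread between these libraries, which may be technical. The 3 table columns taken as CrOE carry only the protein's name, and they were assigned by elimination because the knockdown libraries have columns of their own.

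Proteins that enter the ER are held by BiP and other chaperones, are cross-linked by disulfide isomerases, and, where they carry sugar chains, pass through a cycle of lectin chaperones. Sensors in the ER membrane, among them IRE1 and ATF6, respond to unfolded proteins and switch on chaperone genes, a programme known as the unfolded protein response. Proteins that stay unfolded are drawn back through the membrane by a complex around the ubiquitin ligase HRD1 and are degraded. Fibroblasts secrete large amounts of collagen, whose folding uses several of these enzymes.

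Libraries held 25960054 to 37774020 estimated counts. Levels are in CPM, counts brought to a common library total and scaled between libraries by TMM. A gene was called higher or lower when edgeR's quasi-likelihood test, fitted on all 12 libraries and 14279 genes, gave a Benjamini-Hochberg adjusted p-value under 0.05. Mitochondrially encoded genes took 0.495% to 1.7% of the counts, with no group apart. shCr replicate 1 stood apart from the other shCr libraries: it lay at 42 on the third principal component against 1.47 and -5.05, its mitochondrial share was 0.622% against 1.44% and 1.7%, and its 8 immune and macrophage markers summed to 246.3 CPM against 187.8 and 173.4 CPM. With CrOE EVs, 10 of 11 fibroblast markers were called lower relative to Untreated cells, against 37% of all genes (edgeR); with shCon EVs 3 were higher and 4 lower, and with shCr EVs 2 were higher and 6 lower. The summed level of the 11 was 20140 to 21690 CPM in Untreated, 24840 to 25170 CPM in shCon, 16050 to 17930 CPM in shCr and 8513 to 8891 CPM in CrOE libraries. The epithelial marker Epcam had 0 counts in all 12 libraries, and 11 epithelial markers together reached 3.679 CPM at most. The immune and macrophage markers summed to 128.8 to 140.7 CPM in Untreated, 122.9 to 134 CPM in shCon, 173.4 to 246.3 CPM in shCr and 32.67 to 38.31 CPM in CrOE libraries. Lyz2 (means 46.92, 77.96, 146.3 and 1.247 CPM in that order) and Cd14 (78.34, 41.69, 48.1 and 30.5 CPM) made up most of each sum. Cd68 reached 7.623 CPM at most and Csf1r 2.516 CPM, while Ptprc, Adgre1, Tyrobp and Itgam stayed at or below 0.5126 CPM. The 7 endothelial markers together held 2.886 to 4.536 CPM in any library. The part of these shifts in the results was not tested. In RNA from whole cultures, a change in the number of cells of a type cannot be told apart from a change in RNA per cell.

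The comparison of CrOE EVs with Untreated cells asks what EVs from CRIPTO-overexpressing donor cells did to the fibroblasts. Most of the listed folding and degradation genes were more abundant: 40 of the 42 genes were called higher, against 36.7% of all tested genes, and 1 was called lower, against 37% (73.7% in either direction, edgeR). One of the 40 is Derl3, which passed the filter on low counts only through the CrOE libraries and so had to be higher. Without it, 39 of 41 were higher. The median log2 fold change of the 42 was 1.94, against 0.0078 over all genes tested. Of the 42, 33 were called and rose at least 2-fold, Derl3 among them. The upper quartile of log2 fold changes over all genes tested was 0.53, short of 2-fold. The 42 genes together took 0.85% to 0.891% of the counts of an Untreated library and 4.83% to 4.98% of a CrOE library. Their summed level was 8654 ± 231.6 CPM (SD, n = 3) in Untreated cells and 49090 ± 1391 CPM after CrOE EVs, a ratio of 5.67. In 40 of the 42 genes all 3 CrOE libraries lay above all 9 other libraries, as they did for 30.8% of tested genes. The exceptions were Sdf2, whose CrOE libraries all lay below the other 9 (30.7% of tested genes), and Sil1, whose libraries overlapped. Ranked by log2 fold change among the 14279 genes, 4 of the 42 stood in the top 100 and 23 in the top 500. Without any 1 library of the 2 groups, 39 or 40 genes were called higher and 1 lower.

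**Figure D1:**
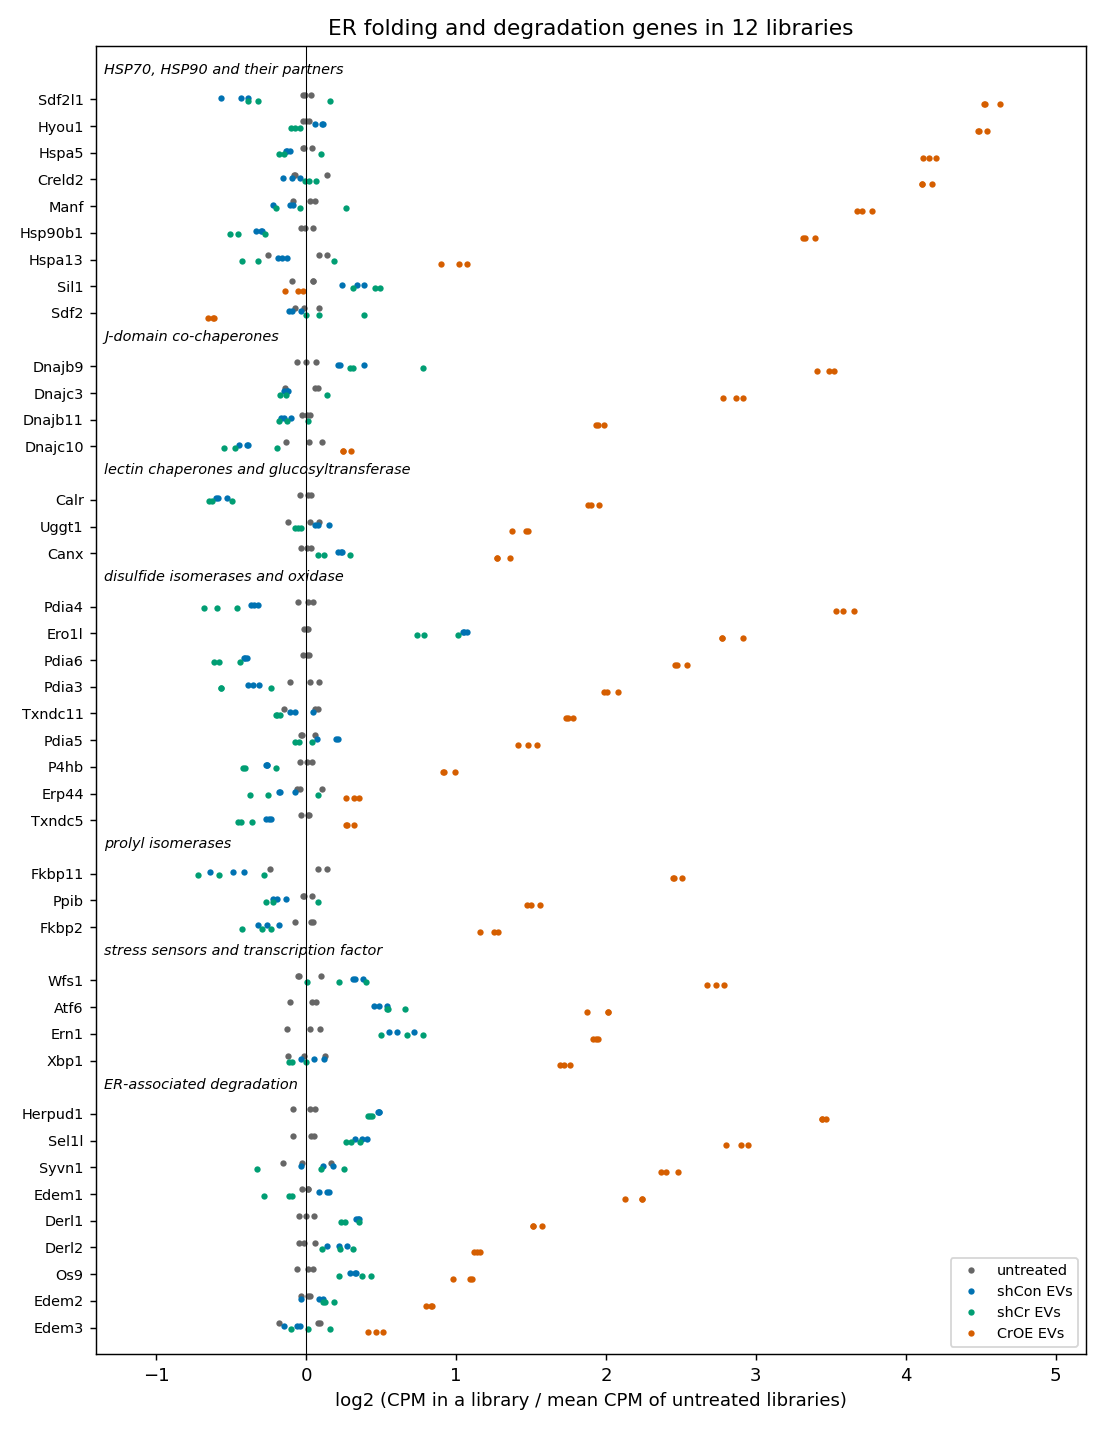
Level of 41 of the 42 genes (Derl3, with few counts, is left out) as log2 of CPM over the mean of the Untreated libraries (x axis), with genes in rows by role and a dot for each of the 12 libraries, coloured by group. The CrOE dots lie right of all others for every gene shown but Sdf2, where they lie left of them, and Sil1, where they overlap the Untreated dots. The shCon and shCr dots lie on both sides of 0. For Sil1 and Dnajc10 both of their means lie farther from 0 than the CrOE mean, and for Txndc5 the shCr mean does.

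**Figure D2:**
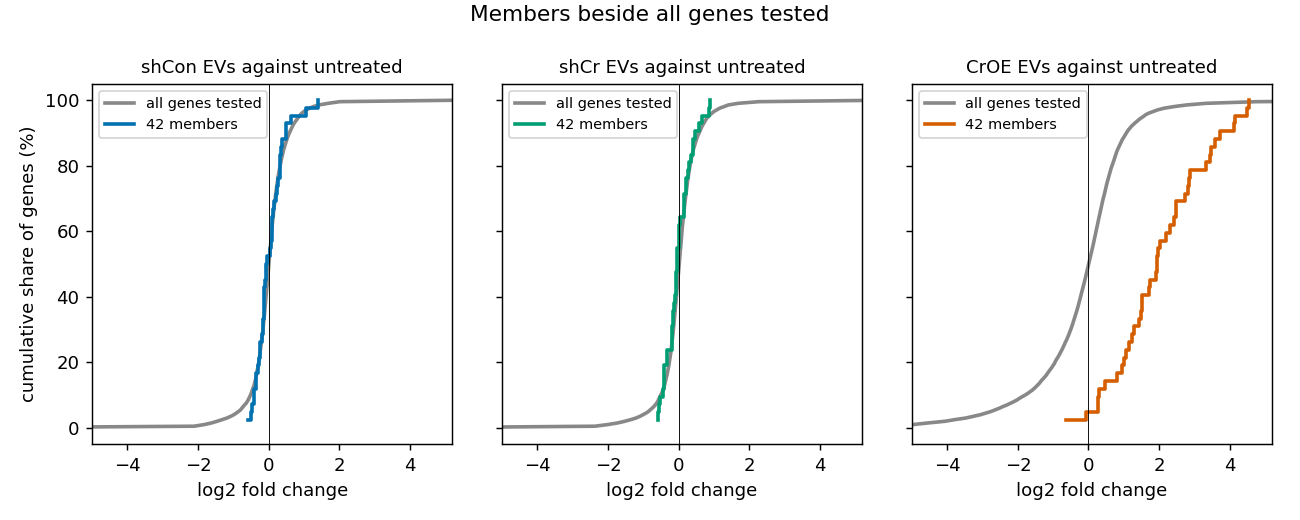
Cumulative share of genes (y axis) against log2 fold change to Untreated cells (x axis) for the members and for all 14279 tested genes, with 1 panel for each EV group. In the CrOE panel the curve of the members lies to the right of the curve of all genes, with medians of 1.94 and 0.0078, and in the shCon and shCr panels the medians of the members are -0.06 and -0.05.

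Several of these genes are known targets of ATF6 and XBP1, which read short DNA elements near the start of chaperone genes. The stretches below are shown because they hold such elements, in capitals, in the promoters of genes that rose after CrOE EVs. They were read from RefSeq promoters (build GRCm38.p6, 250 bases before to 50 after the annotated start), which held 1 or more promoters for 36 of the 42 genes; Hyou1, Hspa13, Sil1, Manf, Atf6 and Derl1 had none. The ER stress response element (ERSE, the letters CCAAT and CCACG with 9 bases of any kind between them, searched on both strands) was found in a promoter of 9 of the 36 genes, 25%, and of 37 of the 27025 genes with a RefSeq promoter, 0.137%. These 37 genes had it in 39 of 32851 promoters, 0.119%. As such elements are known from chaperone genes, a high share in this list follows from its choice and not from these data. Each sequence is printed 5′ to 3′ in the direction of its gene, so an element on the opposite strand starts with CGTGG.
Hspa5, chr2:34771995-34772073 (+): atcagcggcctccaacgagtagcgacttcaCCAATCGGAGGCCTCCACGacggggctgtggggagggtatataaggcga
Hsp90b1, chr10:86705503-86705686 (-): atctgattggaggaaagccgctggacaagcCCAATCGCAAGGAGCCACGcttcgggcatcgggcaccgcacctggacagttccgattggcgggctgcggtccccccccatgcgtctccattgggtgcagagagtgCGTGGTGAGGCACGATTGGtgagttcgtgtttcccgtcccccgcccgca
Creld2, chr15:88819490-88819568 (+): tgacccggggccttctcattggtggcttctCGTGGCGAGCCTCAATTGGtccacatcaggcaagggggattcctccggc
Dnajc3, chr14:118937797-118937875 (+): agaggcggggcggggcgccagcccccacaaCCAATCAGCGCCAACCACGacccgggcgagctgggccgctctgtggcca
Calr, chr8:84847045-84847123 (-): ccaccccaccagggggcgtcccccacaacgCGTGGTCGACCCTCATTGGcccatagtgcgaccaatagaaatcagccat
Canx, chr11:50325770-50325848 (-): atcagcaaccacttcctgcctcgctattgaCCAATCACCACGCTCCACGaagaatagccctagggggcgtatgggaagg
Pdia6, chr12:17266461-17266539 (+): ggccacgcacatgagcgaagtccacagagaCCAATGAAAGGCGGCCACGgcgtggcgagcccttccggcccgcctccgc
Syvn1, chr19:6046502-6046575 (+): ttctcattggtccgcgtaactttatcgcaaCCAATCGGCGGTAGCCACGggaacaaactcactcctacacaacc
Derl3, chr10:75893212-75893290 (+): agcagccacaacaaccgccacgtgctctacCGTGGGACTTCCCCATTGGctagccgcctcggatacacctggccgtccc

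The Hsp90b1 promoter held 2 of these elements, 1 on each strand, and the other 8 printed stretches hold 1 each. A second form of the element, ERSE-II (ATTGG, 1 base of any kind and CCACG, both strands), was found in the promoters of Herpud1 and Dnajb11, 2 of 36 genes (5.56%), against 12 of all 27025 genes (0.0444%). The 8-base core of the unfolded protein response element (TGACGTGG, both strands) was found in Txndc5 and Txndc11, 2 of 36 genes (5.56%), against 193 of all genes (0.714%). The sequences of 3 of these promoters are given for comparison with the ERSE, with the element again in capitals.
Herpud1, chr8:94386347-94386417 (+): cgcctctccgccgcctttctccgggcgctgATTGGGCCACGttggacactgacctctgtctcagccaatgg
Txndc5, chr13:38528015-38528082 (-): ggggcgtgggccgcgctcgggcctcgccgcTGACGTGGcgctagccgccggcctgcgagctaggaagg
Txndc11, chr16:11134597-11134664 (-): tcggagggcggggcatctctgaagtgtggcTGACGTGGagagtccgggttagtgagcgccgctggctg

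The block CCACG alone, which is part of both the ERSE and ERSE-II, occurred in a promoter of 30 of the 36 genes (83.3%) and of 35.5% of all genes. The 9 genes with an ERSE had log2 fold changes of 1.30 to 4.16 after CrOE EVs, with a median of 2.49, or 2.67 over the 8 without Derl3, whose sign was fixed by the filter. The 27 genes without one ranged from -0.63 to 4.56, with a median of 1.72, so the ranges overlapped. A match of letters in this window does not show that a factor binds there, and the deposited values come from another build, mm39, per the submitters' processing notes.

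**Figure D3:**
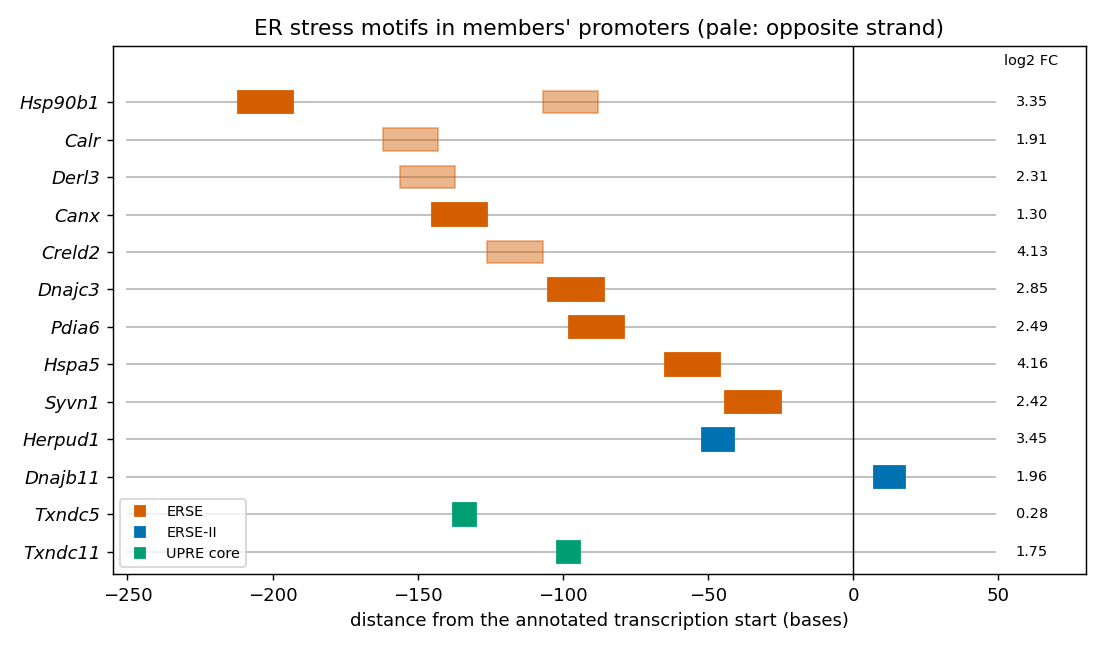
Position of each element relative to the annotated start (x axis, bases) in the promoters of members that hold one, with pale marks for elements on the opposite strand and, at the right, the log2 fold change of the gene from Untreated cells to CrOE EVs. The 8 genes with an ERSE other than Derl3 range from 1.30 to 4.16.

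Among the HSP70 and HSP90 chaperones and their partners, 7 of 9 genes rose after CrOE EVs and Sdf2 fell, and the summed level of the 9 went from 1801 to 24490 CPM, 13.6 times as much. Hspa5 encodes BiP, the HSP70 of the ER, which holds unfolded chains and keeps the stress sensors inactive. Hspa5 had 673.8, 651.8 and 647 CPM in the Untreated libraries and 11700, 12090 and 11400 CPM in the CrOE libraries. The shCon libraries had 611.2, 601.7 and 599.4 CPM and the shCr libraries 704.8, 579.7 and 593.3 CPM. All CrOE libraries were therefore far above the other 9, which lay close together, and the log2 fold change from Untreated cells was 4.16 (SE 0.075, 17.8-fold, edgeR adjusted p = 1.53e-13). Per kilobase of its longest annotated coding transcript, Hspa5 went from 179.1 to 3194 CPM per kb and from 6th to 1st place among the members.

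Hyou1 encodes a large HSP70-like protein that exchanges the nucleotide of BiP. It had 133.9, 135.7 and 137.7 CPM in Untreated cells and 3055, 3172 and 3032 CPM after CrOE EVs, a 22.7-fold rise (log2 fold change 4.51, SE 0.05, edgeR adjusted p = 1.19e-14). Sdf2l1, a partner of the J-domain protein encoded by Dnajb11, rose 23.6-fold, from 16.48, 15.89 and 16.04 CPM to 371.5, 400.1 and 373.3 CPM (log2 fold change 4.56, SE 0.119, edgeR adjusted p = 2.64e-12). Its log2 fold change had the highest estimate of the 42, and it exceeded that of Hyou1 by less than its SE of 0.119. Sdf2, a close relative of Sdf2l1, moved the other way: Untreated libraries had 61.07, 54.47 and 56.8 CPM and CrOE libraries 37.46, 37.29 and 36.5 CPM (log2 fold change -0.63, SE 0.087, edgeR adjusted p = 2.26e-05).

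Hsp90b1 encodes GRP94, the HSP90 of the ER, which folds integrins and other surface proteins. Its level was 761.5, 719.2 and 732.9 CPM in Untreated cells and 7329, 7766 and 7397 CPM after CrOE EVs, a 10.2-fold rise (log2 fold change 3.35, SE 0.064, edgeR adjusted p = 2.38e-13). Manf and Creld2 encode small ER proteins that are secreted under stress; Manf binds BiP. Manf rose 13.2-fold, from 77.66, 70.32 and 76.04 CPM to 974.5, 1024 and 953.9 CPM (log2 fold change 3.72, SE 0.105). Creld2 rose 17.5-fold, from 33.21, 38.69 and 33.37 CPM to 606.3, 633.5 and 606.8 CPM (log2 fold change 4.13, SE 0.068). Hspa13, another HSP70-like gene, rose less than these, from 56.41 to 74 CPM in Untreated libraries to 125.6 to 141.5 CPM (log2 fold change 1.00, SE 0.138). Sil1, the second nucleotide exchange factor of BiP, had 19.92, 19.97 and 18.06 CPM in Untreated cells and 17.51, 18.56 and 19.04 CPM after CrOE EVs, with no call (log2 fold change -0.07, SE 0.072, edgeR adjusted p = 0.384). The 2 exchange factors thus differed: Hyou1 libraries were separated by group and Sil1 libraries overlapped.

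**Figure D4:**
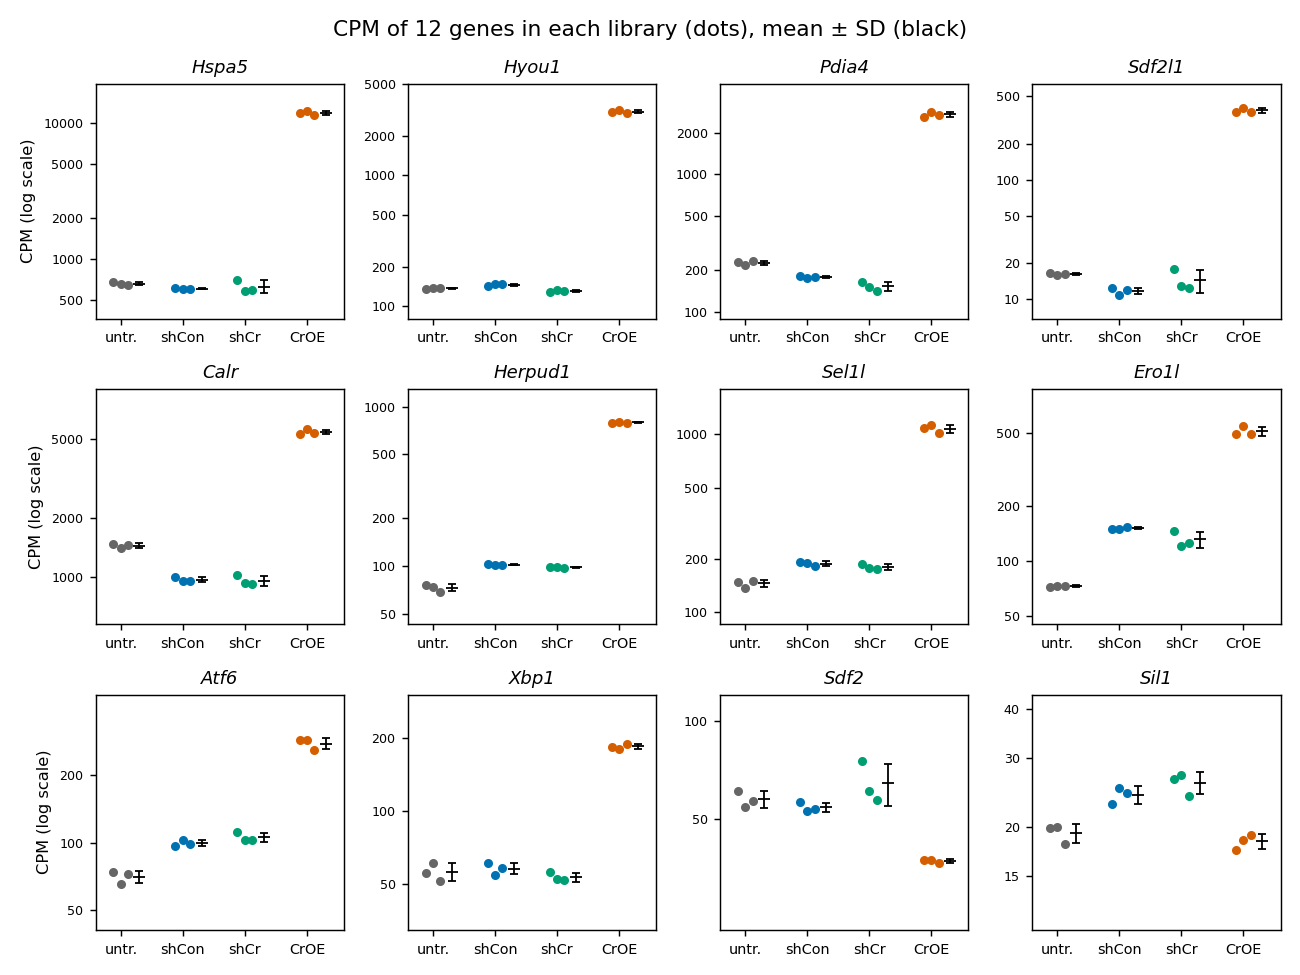
Level in CPM (y axis, log scale) of 12 of the genes in the 4 groups (x axis), with a dot for each library and the mean ± SD of the 3 libraries. The CrOE dots lie above all others in every panel but those of Sdf2, where they lie below (36.5 to 37.46 CPM), and Sil1, where they overlap the Untreated dots (17.51 to 19.04 CPM).

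All 4 J-domain co-chaperones, which hand clients to BiP and set off its ATPase cycle, rose after CrOE EVs. Dnajb9, whose protein brings BiP to IRE1, had 14.02, 13.45 and 14.72 CPM in Untreated cells and 157.7, 161.8 and 149.1 CPM after CrOE EVs (log2 fold change 3.47, SE 0.115, edgeR adjusted p = 2.03e-11). Dnajc3, which encodes an inhibitor of the sensor kinase PERK, rose from 76.34 to 89.03 CPM to 579.3 to 634.9 CPM (log2 fold change 2.85, SE 0.086). The log2 fold change of Dnajb11 was 1.96 (SE 0.054). Dnajc10, whose protein reduces disulfide bonds of clients bound for degradation, changed least, from 223.3, 189 and 209.7 CPM to 245.5, 255.5 and 245.4 CPM (log2 fold change 0.26, SE 0.084, edgeR adjusted p = 0.0126). In all 4 the CrOE libraries lay above the other 9, as they did for 30.8% of tested genes. The Dnajc10 call was lost without Untreated replicate 2 (edgeR adjusted p = 0.0557).

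All 3 lectin chaperone genes rose, with log2 fold changes from 1.30 to 1.91. Calr encodes calreticulin, the soluble lectin chaperone, and was the most abundant member per kilobase in Untreated cells (663.5 CPM per kb); after CrOE EVs it was 3rd, at 2498 CPM per kb, behind Hspa5 and Hsp90b1. Calr had 1479, 1407 and 1460 CPM in Untreated cells and 5332, 5621 and 5415 CPM after CrOE EVs (log2 fold change 1.91, SE 0.053, edgeR adjusted p = 4.24e-12). Canx, its membrane-bound counterpart calnexin, rose from 710.2 to 745.1 CPM to 1759 to 1869 CPM (log2 fold change 1.30, SE 0.058). Uggt1, which encodes the enzyme that marks unfolded glycoproteins for another round, rose from 143.9 to 165.7 CPM to 405.2 to 436.5 CPM (log2 fold change 1.44, SE 0.058). In each of the 3 genes the CrOE libraries lay above all others, as they did for 30.8% of tested genes.

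All 9 disulfide isomerase and oxidase genes rose after CrOE EVs, but over a wide range, with log2 fold changes from 0.28 to 3.59. Pdia4 rose most: 229, 218.7 and 234.4 CPM in Untreated libraries became 2640, 2867 and 2722 CPM in CrOE libraries (log2 fold change 3.59, SE 0.066, 12.1-fold, edgeR adjusted p = 1.94e-13). Ero1l encodes the oxidase that recharges these isomerases; it had 71.73, 73.14 and 72.73 CPM in Untreated cells and 496.8, 545.7 and 497.2 CPM after CrOE EVs (log2 fold change 2.82, SE 0.071, edgeR adjusted p = 1.97e-12). Pdia6, an isomerase that also acts on IRE1, rose by 2.49 on the log2 scale (SE 0.054), and Pdia3, the isomerase that works with calreticulin and calnexin, by 2.02 (SE 0.087). P4hb encodes the founding isomerase, which is also a subunit of the collagen prolyl hydroxylase. It rose less, from 985.6 to 1045 CPM to 1916 to 2020 CPM (log2 fold change 0.94, SE 0.06), and went from 2nd to 8th place per kilobase among the members. Txndc5 (0.28, SE 0.044) and Erp44 (0.31, SE 0.095), which retains oxidases and unfinished clients in the early secretory pathway, had the smallest log2 rises of the 9. Pdia5 (1.48) and Txndc11 (1.75) lay between.

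The 3 prolyl isomerases rose as well. Ppib, which encodes cyclophilin B, an enzyme of collagen folding, went from 246.9, 237.3 and 237.6 CPM to 679.1, 708.9 and 667.2 CPM (log2 fold change 1.51, SE 0.079, edgeR adjusted p = 1.61e-09). Fkbp2 had a log2 fold change of 1.23 (SE 0.066), and Fkbp11 one of 2.47 (SE 0.113) from a low level of 8.093 to 10.54 CPM.

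The 4 genes of stress sensing, which encode 2 sensors, a transcription factor and a regulator of ATF6, were all higher after CrOE EVs. Atf6, a sensor that becomes a transcription factor after cleavage in the Golgi, had 73.67, 65.33 and 72.51 CPM in Untreated cells and 284.9, 285 and 257.9 CPM after CrOE EVs (log2 fold change 1.97, SE 0.064, edgeR adjusted p = 1.74e-11). Ern1 encodes IRE1, the kinase and nuclease that splices Xbp1 RNA; it rose from 20.38 to 23.76 CPM to 83.9 to 85.78 CPM (log2 fold change 1.93, SE 0.079). Xbp1, the transcription factor made from that spliced RNA, had 55.54, 60.95 and 51.5 CPM in Untreated cells and 184.4, 181 and 189.5 CPM after CrOE EVs (log2 fold change 1.72, SE 0.067). Counts per gene do not separate spliced from unspliced Xbp1 RNA. Wfs1, which encodes an ER membrane protein that restrains ATF6 signalling, rose by 2.73 on the log2 scale (SE 0.087), the largest estimate of the 4.

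Of the 10 genes of ER-associated degradation, the 9 other than Derl3 all rose with CrOE EVs over the Untreated level, and the sum of the 10 went from 814.1 to 3593 CPM. Herpud1, a scaffold of the HRD1 complex, rose most: 75.68, 73.94 and 68.5 CPM in Untreated libraries became 789.8, 804.5 and 791.4 CPM (log2 fold change 3.45, SE 0.05, edgeR adjusted p = 3.73e-14). Sel1l, the adaptor of HRD1, had 148.5, 136.9 and 150.6 CPM in Untreated cells and 1086, 1121 and 1013 CPM after CrOE EVs (log2 fold change 2.88, SE 0.06, edgeR adjusted p = 4.55e-13). Syvn1, which encodes HRD1 itself, rose from 80.11 to 99.98 CPM to 460.4 to 497.6 CPM (log2 fold change 2.42, SE 0.128). The Edem genes encode proteins that trim the sugars of terminally misfolded glycoproteins, and they rose unequally. The log2 fold change was 2.20 for Edem1 (SE 0.059), 0.82 for Edem2 (SE 0.051) and 0.46 for Edem3 (SE 0.08). Derlins line the exit channel; the log2 fold change was 1.53 for Derl1 and 1.14 for Derl2. Os9, a lectin that delivers clients to the complex, rose by 1.06.

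Derl3 was near the detection limit. It had 2, 1 and 4 counts in Untreated libraries, 3, 7 and 10 in shCon, 1, 8 and 7 in shCr, and 17, 13 and 15 in CrOE libraries, and its log2 fold change was 2.31 (SE 0.601, edgeR adjusted p = 0.00375). The other 41 genes had at least 10 counts in every library.

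EVs from the control and the knockdown donor cells were followed by changes in both directions. After shCon EVs, 12 of the 42 genes were called higher, against 18% of all tested genes, and 11 were called lower, against 20.2% (38.1% in either direction, edgeR). After shCr EVs 12 were higher, against 18.4%, and 12 lower, against 18.8% (37.3% in either direction). The median log2 fold changes of the 42 genes were -0.06 and -0.05, against 0.0069 and 0.02 over all genes. Both comparisons use the same 3 Untreated libraries, so their values are not independent of each other. The summed level of the 42 was 7790 ± 74.7 CPM (SD, n = 3) after shCon EVs and 7524 ± 542 CPM after shCr EVs, against 8654 ± 231.6 CPM in Untreated cells. Within the list the calls differed by role: after shCon EVs 5 of the 10 degradation genes and 3 of the 4 stress-sensor genes were higher and none lower, whereas 5 of the 9 disulfide genes were lower and 2 higher. After shCr EVs, 6 of 10 degradation genes and 2 of 4 stress-sensor genes were higher, 1 degradation gene was lower, and 6 of 9 disulfide genes were lower. Without shCr replicate 1, the library that stood apart, 18 members were lower after shCr EVs instead of 12. Calls over all genes were not counted in that fit, so whether the increase is particular to the members was not tested.

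**Figure D5:**
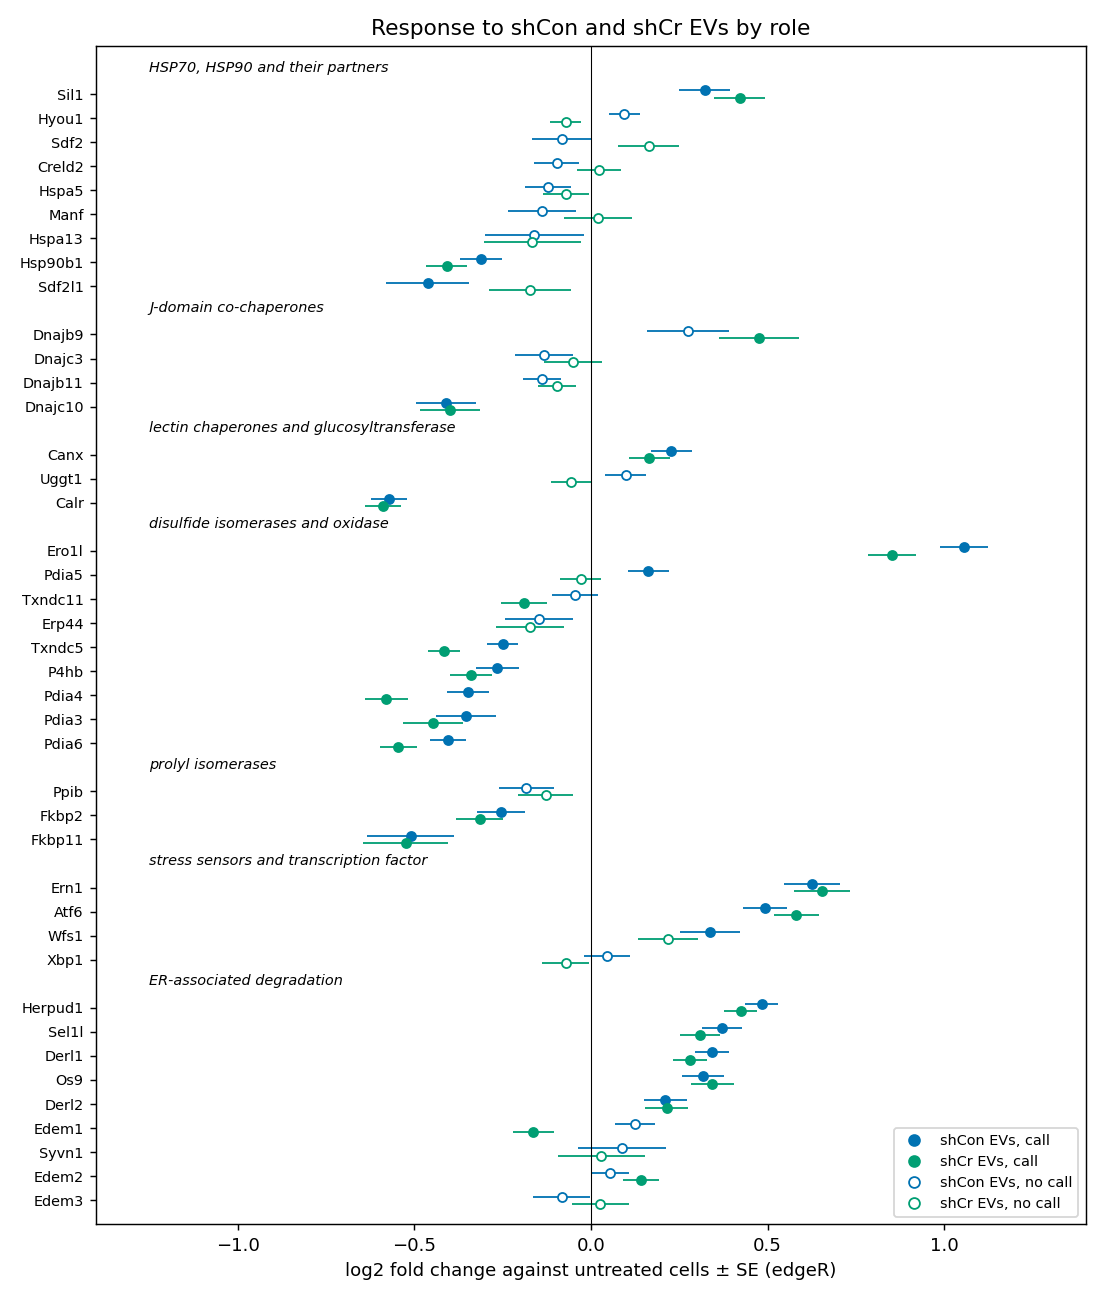
Log2 fold change to Untreated cells (x axis, ± SE) after shCon EVs and after shCr EVs for 41 of the 42 genes (Derl3 is left out), in rows by role, with filled marks for calls and open marks for none. Ero1l lies farthest to the right, at 1.06 and 0.85, Calr farthest to the left, at -0.57 and -0.59, and most degradation and stress-sensor genes lie right of 0.

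Chaperones and isomerases of folding were among the genes that fell. Calr had 1006, 962.3 and 956.4 CPM after shCon EVs and 1027, 938.2 and 924.6 CPM after shCr EVs, all below the Untreated libraries (log2 fold changes -0.57 and -0.59, SE 0.052 each, edgeR adjusted p = 2.99e-06 and 1.99e-06). Hsp90b1 had 600.5, 598.7 and 584.9 CPM after shCon EVs and 608.5, 519.5 and 539.1 CPM after shCr EVs (log2 fold changes -0.31 and -0.41). Pdia4 had 181.6, 175.8 and 178.7 CPM after shCon EVs and 164.9, 150.3 and 141.4 CPM after shCr EVs (log2 fold changes -0.35 and -0.58). Each of these genes had risen with CrOE EVs and was below the Untreated level with the other EVs. The other genes called lower in both comparisons were Dnajc10 (-0.41 and -0.40 on the log2 scale), Pdia3 (-0.35 and -0.45), Pdia6 (-0.40 and -0.55), P4hb (-0.26 and -0.34), Txndc5 (-0.25 and -0.42), Fkbp2 (-0.26 and -0.32) and Fkbp11 (-0.51 and -0.52). Sdf2l1 was called lower after shCon EVs, at 12.34, 10.89 and 11.92 CPM (log2 fold change -0.46, edgeR adjusted p = 0.00824). After shCr EVs it had 17.98 CPM in replicate 1 and 12.88 and 12.32 CPM in the others, with no call (edgeR adjusted p = 0.274), and shCr and shCon EVs compared directly missed the threshold (0.29, edgeR adjusted p = 0.163).

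Hspa5 was not called in either comparison: its log2 fold change was -0.12 after shCon EVs (SE 0.066, edgeR adjusted p = 0.165) and -0.07 after shCr EVs (SE 0.066, edgeR adjusted p = 0.43). The shCon libraries of Hspa5 all lay below the Untreated ones, while the shCr libraries reached from 579.7 CPM to 704.8 CPM in replicate 1. Without that replicate the shCr value was -0.16 and passed the threshold (edgeR adjusted p = 0.00345). With only the 2 groups compared in the fit, the shCon value was -0.13 and passed it too (edgeR adjusted p = 0.0186). Manf, Creld2, Hyou1, Dnajc3, Uggt1, Xbp1, Syvn1 and Edem3, all of which rose with CrOE EVs, were called in neither comparison either.

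Of the genes called higher, Ero1l had the largest log2 fold change with the shCon and the shCr EVs. It went from 71.73 to 73.14 CPM in Untreated libraries to 150, 150.1 and 152.6 CPM after shCon EVs (log2 fold change 1.06, SE 0.068, edgeR adjusted p = 1.51e-07) and to 146.3, 121 and 125.3 CPM after shCr EVs (log2 fold change 0.85, SE 0.068, edgeR adjusted p = 8.76e-07). Atf6 rose to 96.43, 102.4 and 98.71 CPM after shCon EVs and to 111.2, 102.2 and 103.1 CPM after shCr EVs (log2 fold changes 0.49 and 0.58). Ern1 rose to 36.64, 33.9 and 32.6 CPM and to 31.44, 38.19 and 35.41 CPM (log2 fold changes 0.63 and 0.65). Neither sensor's libraries overlapped those of Untreated cells, whereas Xbp1, with log2 fold changes of 0.04 and -0.07, had overlapping libraries. How many of all tested genes were separated in this way was not counted. Wfs1 was called after shCon EVs (log2 fold change 0.34, edgeR adjusted p = 0.00751) and not after shCr EVs (0.22, edgeR adjusted p = 0.0613), and the comparison of those 2 EV groups missed the threshold (-0.12, edgeR adjusted p = 0.457).

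Of the degradation genes, Herpud1 rose to 101.9, 101.7 and 101.3 CPM after shCon EVs and to 98.35, 97.75 and 96.52 CPM after shCr EVs (log2 fold changes 0.48 and 0.42, edgeR adjusted p = 5.05e-06 and 1.38e-05). Sel1l rose to 192.7, 188.3 and 182.5 CPM and to 186.8, 178.5 and 174.7 CPM (log2 fold changes 0.37 and 0.31). Derl1 (0.34 and 0.28), Derl2 (0.21 and 0.21) and Os9 (0.32 and 0.34) were also called higher in both comparisons. Sil1, the exchange factor that had no call with CrOE EVs, was higher with both of the other EVs: 22.83, 25.2 and 24.43 CPM after shCon EVs and 26.54, 27.14 and 23.96 CPM after shCr EVs (log2 fold changes 0.32 and 0.42, edgeR adjusted p = 0.00363 and 0.000505). Dnajb9 was called after shCr EVs, at 24.18, 17.2 and 17.49 CPM (log2 fold change 0.48, edgeR adjusted p = 0.00539), and not after shCon EVs (0.27, edgeR adjusted p = 0.0811), and the direct comparison of the 2 EV groups missed the threshold (0.20, edgeR adjusted p = 0.324). Canx rose by 0.23 after shCon EVs and by 0.17 after shCr EVs. The calls of Canx, Edem1 (-0.16), Edem2 (0.14), Txndc11 (-0.19) and Derl2 after shCr EVs, and of Pdia5 (0.16) and Derl2 after shCon EVs, had adjusted p-values of 0.0137 to 0.046 and were lost when single libraries were left out.

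CrOE EVs were also compared directly with the EVs of the other donor lines, which asks whether the CRIPTO level of the donor cells went with a different response. The groups hold no separate control for the overexpressing line. Its CRIPTO level therefore cannot be told apart from other differences between the donor lines. Against shCon EVs, 39 of the 42 genes were higher, against 36.5% of all tested genes, and 2 lower, against 36.1% (72.6% in either direction, edgeR). Against shCr EVs, 40 were higher, against 36.9%, and 2 lower, against 37% (73.9% in either direction). These 40 include Derl3, which passed the filter on low counts only through the CrOE libraries and so had to be higher. The medians of the 42 log2 fold changes were 1.73 and 1.87, and 32 and 33 genes were at least 2-fold higher. The upper quartiles of log2 fold changes over all genes tested were 0.51 and 0.54, short of 2-fold. These comparisons share the CrOE libraries with each other and with the comparison to Untreated cells. Hspa5 was higher by 4.28 on the log2 scale against shCon EVs (SE 0.075) and by 4.23 against shCr EVs (SE 0.075), Sdf2l1 by 5.03 and 4.74, and Calr by 2.48 and 2.50. Genes that the other EVs raised had to show a smaller difference here than against Untreated cells, since all comparisons come from 1 fit. Ero1l was higher by 1.77 and 1.97, Atf6 by 1.48 and 1.39, and Ern1 by 1.30 and 1.28. The 2 lower genes were Sdf2 (-0.55 and -0.79) and Sil1 (-0.39 and -0.49; edgeR adjusted p = 0.000263 and 3.39e-05). Derl3 was not called against shCon EVs (log2 fold change 0.92, edgeR adjusted p = 0.107). Against shCr EVs it was called at 1.42 (edgeR adjusted p = 0.0224), and that call was lost without shCr replicate 1 (edgeR adjusted p = 0.062) or without CrOE replicate 1 (edgeR adjusted p = 0.0695).

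The comparison of EVs from knockdown and control donor cells asks about lowering CRIPTO in the donors. Calls were few among the members and among all tested genes alike. None of the 42 was called higher, against 5.22% of all tested genes. There were 4 called lower (9.52%), against 3.51% of all genes (8.73% in either direction, edgeR). At an unadjusted p under 0.05, 2 of the 42 were higher and 9 lower, against 1818 and 1388 of all 14279 genes, and DESeq2 called 0 higher and 7 lower. Edem1 was lower after shCr EVs, at 53.65, 53.05 and 47.12 CPM against 63.69, 63.08 and 60.99 CPM after shCon EVs (log2 fold change -0.29, SE 0.058, edgeR adjusted p = 0.00826), and the 2 groups did not overlap. Hyou1 (-0.16, edgeR adjusted p = 0.0352), Pdia4 (-0.23, edgeR adjusted p = 0.0326) and Txndc5 (-0.17, edgeR adjusted p = 0.0365) were lower as well, and all of these 3 calls were lost without any 1 of shCon replicate 1, 2 or 3 or shCr replicate 2 or 3. Without shCr replicate 1, 10 of the 42 genes were lower. Calls over all genes were not counted for that fit or for DESeq2. Log2 fold changes of all 42 lay between -0.50 and 0.29, and the -0.50 belonged to Derl3 (SE 0.58).

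Beyond the 42, 77 further genes of ER folding, quality control, glycosylation, transport and the stress response were tested as a list. That list too was chosen with earlier results of these data known. After CrOE EVs 44 of the 77 (57.1%) were higher and 14 (18.2%) lower than in Untreated cells, against 36.7% and 37% of all tested genes (edgeR), and their summed level went from 8588 to 11900 CPM, 1.39 times as much. The largest rises were in Ppp1r15a, which encodes the phosphatase subunit GADD34 that restores translation after stress (27.83, 33.01 and 26.01 CPM to 472, 498.2 and 494.3 CPM, log2 fold change 4.08), in Ero1lb, the second ER oxidase gene (4.06), and in the stress-induced pseudokinase gene Trib3 (3.65). Of the transcripts of Ero1lb, 11.5% of 31-base stretches also occur in other genes, so its count is less certain. The largest falls were in Ngly1 (-1.30), which encodes the enzyme that strips sugars from retrotranslocated glycoproteins, in the sulfhydryl oxidase gene Qsox1 (-1.24) and in Creb3l1 (-0.84), whose product is a transcription factor of collagen secretion.

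With the other EVs the shares called in this list were close to those of all tested genes. After shCon EVs 12 of the 77 (15.6%) were higher and 14 (18.2%) lower, against 18% and 20.2% of all genes (edgeR). After shCr EVs 15 (19.5%) were higher and 17 (22.1%) lower, against 18.4% and 18.8%. Trib3 rose from 20.27 to 31.71 CPM in Untreated libraries to 88.92 to 92.98 CPM after shCon EVs and 52.29 to 61.14 CPM after shCr EVs (log2 fold changes 1.87 and 1.16). It was lower with shCr than with shCon EVs (-0.71, SE 0.123, edgeR adjusted p = 0.00337). Ddit3, which encodes the stress transcription factor CHOP, rose by 1.20 and 1.14. Creb3l1 rose by 0.94 with shCon EVs and was called lower with CrOE EVs, so that its CrOE libraries lay 1.77 below the shCon ones on the log2 scale. The genes with the largest falls after shCon EVs were Selm (-0.41), Txndc15 (-0.39) and Fkbp10 (-0.35), and after shCr EVs Fkbp10 (-0.68), Selm (-0.54) and the KDEL receptor gene Kdelr2 (-0.42). Fkbp10, which encodes a collagen-folding prolyl isomerase, was also lower with shCr than with shCon EVs (-0.33). In the comparison of shCr with shCon EVs none of the 77 was called higher and 3 (3.9%) lower, against 5.22% and 3.51% of all genes. At an unadjusted p under 0.05, 4 of the 77 were higher and 7 lower, against 1818 and 1388 of 14279 genes. DESeq2 called 1 higher and 4 lower, and its calls over all genes were not counted.

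Some of these values rest on reads that annotation cannot assign with certainty. In GENCODE M21, exons of a gene on the opposite strand overlap 12 of the 42 genes (Hsp90b1, Sil1, Sdf2, Manf, Dnajb9, Pdia3, Pdia6, Txndc5, Txndc11, Ppib, Syvn1 and Derl2), and whether reads were counted by strand is not given in the sources used here. Exons of another gene on the same strand overlap Hsp90b1, Manf and Pdia4, and over 10% of the 31-base stretches of Dnajb9 (10.8%) and Ppib (13.5%) occur in other genes. Of the further genes named above, Ppp1r15a, Ngly1, Qsox1, Ddit3 and Fkbp10 are overlapped by exons on the opposite strand.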

How the data were processed

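Poly(A)-selected, directional libraries were sequenced from 3T3 cells, per the labels' protocols. The table the authors deposited holds estimated counts for each gene symbol; 39.8% of values were not whole. Per the submitters' processing notes, featureCounts and build mm39 were used; the quantifier behind fractional values, the annotation and the strand setting are not given in the sources used here. The estimated counts were rounded, and filterByExpr over the 4 groups left 14279 genes. TMM scaling and edgeR 4.0.16 (R 4.3.3; glmQLFit and glmQLFTest) were applied to all 12 libraries with 1 mean per group and 8 residual degrees of freedom. Standard errors came from the log2 fold change and the square root of F, and the common dispersion was 0.00793. The test was checked on simulated counts with far fewer and milder changes than those with CrOE EVs, so the check does not cover shifts that wide. Lengths and overlaps came from GENCODE M21, promoters from RefSeq (GRCm38.p6). Members and lists were chosen with earlier results of these data known. Of the 77 further genes, those named had the 3 largest rises and falls among calls in a comparison. Alternatives were DESeq2 1.42.0, median-of-ratios size factors, total counts without TMM, no filter or a stricter one on low counts, a replicate block, only the 2 groups compared and leaving out each library.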

Additional observations from a re-analysis of the deposited data

How the results depend on the processing

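No member changed direction among its calls under any alternative. Calls over all genes were not counted under the alternatives, so the counts below have no such share beside them. The 40 higher and 1 lower calls of CrOE EVs against Untreated cells were kept under all 13 alternatives except for Dnajc10 without Untreated replicate 2, and with at least 10 counts in every library, which drops Derl3, the members' median was 1.90. Against shCr EVs that filter gave a median of 1.91, and leaving out single libraries gave 1.86 to 1.89. For shCon EVs against Untreated cells, leaving out single libraries moved the members' median from -0.0942 to -0.0187 and the number of lower further genes from 5 to 17. Between shCr and shCon EVs the 4 lower members became 7 with DESeq2, 2 with no filter on low counts and 1 with only the 2 groups compared. Leaving out single libraries gave 1 to 10 lower and 0 to 1 higher members, and 2 to 6 lower and 0 to 2 higher further genes. One further gene was higher there with DESeq2, with no filter and with the replicate block, against 0. Total counts without TMM were added after seeing the data.

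Same-numbered libraries did not pair: deviations from group means correlated at -0.204 to 0.315 over 18 pairs with the same number and at -0.364 to 0.35 over 36 pairs with different numbers. With the replicate number as a block, members called higher and lower were 12 and 11 for shCon EVs, 13 and 12 for shCr EVs and 40 and 1 for CrOE EVs against Untreated cells, 0 and 4 between shCr and shCon EVs, 39 and 2 between CrOE and shCon EVs, and 40 and 2 between CrOE and shCr EVs.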
